A study of Mus musculus with 2 samples.

Results

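The voltage-gated calcium and sodium channel genes were taken by symbol from the GENCODE mouse annotation: every protein-coding gene whose name begins with Cacna, Cacnb, Cacng or Scn followed by a digit. This gave 40 of 21911 protein-coding genes, 26 for calcium channels and 14 for sodium channels. Their coverage by peaks of H3K27me3, histone H3 trimethylated at lysine 27, was read from chromatin immunoprecipitation and sequencing of MEL cells. MEL is an immortalized mouse erythroleukaemia line, labelled as an analog of the human line K562, and no treatment, genotype or second condition was given. The series is 1 group of 2 biological replicates, so values are compared between replicates and between genes, and no test of a condition exists. Replicate 1 had 70905 peaks and replicate 2 had 106999. The authors also deposited a pooled list of 69724 peaks called on both replicates together and a replicated list of 38300 peaks derived from the other 3 lists. The replicated list therefore gives no support beyond that of the replicates. All positions are on mm10.

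Voltage-gated calcium and sodium channels open when the membrane depolarises and drive excitation, contraction and secretion in neurons, muscle and endocrine cells. Each has a large pore-forming subunit, and smaller subunits set its traffic and gating. H3K27me3 is laid down by Polycomb repressive complex 2 on genes that a cell keeps silent, and in mammals the complex is drawn in particular to unmethylated stretches rich in CG pairs, such as many promoters. As a check of the label, 10 erythroid genes (among them Gata1, Klf1, Tal1 and Epor) were examined, and 0 of the 10 had a peak at the start or in the body in any of the 4 mm10 lists. Of all protein-coding genes 76.8% had none either, so this bears little on the label, and peak lists hold no expression.

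The peak sequences printed here were poor in CG pairs, and the 2 unmarked promoters printed after them were rich in them. The sequences are the central bases of the only replicated peak beside a channel gene start (Scn4a, chr11:106353615-106353914, upstream of the gene) and of a strong replicated peak in 4 further genes, the one with the highest −log10 p whose central stretch touches no exon. Those are Scn4b (chr9:45148289-45148528, intron 3), Cacna1g (chr11:94420215-94420454, intron 26), Cacna1f (chrX:7624181-7624420, intron 27) and Cacna1d (chr14:30447489-30447728, intron 1). In Cacna1g, peaks in introns 16 and 19 have the same −log10 p and are not shown. They are followed by the 250 bases before the RefSeq starts of Cacna2d3 (chr14:29721865-29722114) and Cacna2d1 (chr5:15934441-15934690), neither of which had a peak within 1 kb in any list. CG pairs are in capitals. Peaks are on the plus strand of GRCm38, promoters on the strand of the gene, from the RefSeq table on GRCm38.p6. The 4 genes and both promoters were chosen after their values were seen. The contrast sets mostly intronic sequence against promoters, so it cannot show a difference between marked and unmarked sequence.
Scn4a start peak: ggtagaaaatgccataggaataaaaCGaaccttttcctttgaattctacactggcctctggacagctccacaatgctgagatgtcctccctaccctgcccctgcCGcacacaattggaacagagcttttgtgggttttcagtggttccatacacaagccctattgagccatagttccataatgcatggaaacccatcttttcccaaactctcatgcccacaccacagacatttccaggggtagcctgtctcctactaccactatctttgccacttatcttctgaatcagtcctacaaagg
Scn4b peak: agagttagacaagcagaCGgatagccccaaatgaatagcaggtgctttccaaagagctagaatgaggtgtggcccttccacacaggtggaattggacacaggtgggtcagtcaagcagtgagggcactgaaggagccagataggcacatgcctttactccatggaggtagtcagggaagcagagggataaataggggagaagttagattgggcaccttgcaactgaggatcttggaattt
Cacna1g peak: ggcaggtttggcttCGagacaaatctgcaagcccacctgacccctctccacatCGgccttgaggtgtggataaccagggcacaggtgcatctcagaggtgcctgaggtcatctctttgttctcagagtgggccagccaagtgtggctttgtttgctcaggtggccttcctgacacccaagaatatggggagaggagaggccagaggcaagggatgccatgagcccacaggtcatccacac
Cacna1f peak: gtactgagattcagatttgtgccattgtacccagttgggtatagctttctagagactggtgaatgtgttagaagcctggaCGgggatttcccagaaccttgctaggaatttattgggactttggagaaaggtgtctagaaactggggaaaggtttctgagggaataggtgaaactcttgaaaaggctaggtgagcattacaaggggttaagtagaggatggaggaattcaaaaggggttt
Cacna1d peak: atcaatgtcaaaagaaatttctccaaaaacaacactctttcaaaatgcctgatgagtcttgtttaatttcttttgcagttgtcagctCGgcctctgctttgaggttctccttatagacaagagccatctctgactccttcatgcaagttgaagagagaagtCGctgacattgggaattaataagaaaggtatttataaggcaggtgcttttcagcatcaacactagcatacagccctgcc
Cacna2d3 promoter: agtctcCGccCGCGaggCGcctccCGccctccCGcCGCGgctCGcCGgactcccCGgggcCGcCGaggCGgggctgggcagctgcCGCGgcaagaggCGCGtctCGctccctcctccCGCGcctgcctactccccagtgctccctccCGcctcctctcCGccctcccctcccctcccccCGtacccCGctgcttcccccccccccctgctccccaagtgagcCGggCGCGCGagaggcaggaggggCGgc
Cacna2d1 promoter: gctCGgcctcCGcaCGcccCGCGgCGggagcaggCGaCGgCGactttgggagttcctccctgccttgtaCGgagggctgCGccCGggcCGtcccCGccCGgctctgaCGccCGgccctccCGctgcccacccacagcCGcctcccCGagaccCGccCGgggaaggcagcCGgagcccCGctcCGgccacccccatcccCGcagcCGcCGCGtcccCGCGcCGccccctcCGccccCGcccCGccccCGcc

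The Scn4a stretch held 2 CG pairs in 300 bases, and the intronic stretches of Scn4b, Cacna1g, Cacna1f and Cacna1d held 1, 2, 1 and 2 in 240 bases each. The promoter stretches of Cacna2d3 and Cacna2d1 held 30 and 36 in 250 bases. Of the 32851 promoter entries in the RefSeq table, 5.94% had at least as many CG pairs in these 250 bases as Cacna2d3 and 2.58% at least as many as Cacna2d1, against a median of 6. Over the whole set of 235 replicated peaks in channel genes there were 9.44 CG pairs per kb, against 8.59 among all replicated peaks, and a median GC content of 45.1% against 43.0%. Within 1 kb of the start, 13 of 40 channel genes reached a ratio of observed to expected CG pairs of 0.6, a common mark of CG islands, or 32.5% against 33.9% of all protein-coding genes. These were 6 of the 19 channel genes with a replicated peak in the body and 7 of the 21 without one, so CG content at the start did not separate the marked genes.

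At channel gene starts, replicated H3K27me3 peaks were about as rare as at the starts of all genes. In the replicated list 1 of 40 channel genes had a peak within 1 kb of its outermost annotated start, against 3.0% of all protein-coding genes. That gene was Scn4a (chromosome 11, 106318592 to 106353288), which encodes the pore of the skeletal muscle sodium channel. Peaks covered 295 bases of its start window in replicate 1, 721 in replicate 2 and 620 in the replicated list. The replicated peak began 167 bp upstream of the start and was weak, with the authors' −log10 q at 0.533. The share of 1 in 40 channel genes, 2.5%, lies at the background.

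The replicates' own lists added a few weakly covered starts. Replicate 1 had a peak at the starts of 3 channel genes (7.5%), against 4.46% of all genes, and replicate 2 at 5 (12.5%), against 6.28%. The pooled list had 3 (7.5%), against 4.48%. Scn4a, Cacnb3 and Scn2b (7.5%) were marked at the start in both replicates' own lists, against 3.14% of all genes. These shares rest on 3 to 5 genes and lie above those of all genes, and the difference was not tested. In Cacnb3 and Scn2b, however, the replicates had no base of the start window in common. With shared bases required, a setting chosen after seeing the data, 1 of 40 channel genes (Scn4a) was left, against 2.27% of all genes. Cacnb3, a cytoplasmic beta subunit that carries the calcium channel pore to the membrane, had 315 bases in replicate 1 and 267 in replicate 2. Scn2b, a beta subunit with a single membrane span and an immunoglobulin-like domain, had 140 bases in each. They lay before the start in replicate 1 and after it in replicate 2. Cacna1f (186 bases) and Cacng7 (140 bases) had a start peak in replicate 2 and none in replicate 1. When every annotated transcript start was allowed, 5 channel genes (12.5%) had a replicated peak within 1 kb, against 4.63% of all genes. They were Scn4a, Cacnb3, Cacna1c, Cacna1f and Cacna1g. Channel genes were not matched to other genes by their number of annotated starts. In Cacna1c that start lay 116411 bp inside the gene, in Cacna1g 47736 bp and in Cacna1f between 19147 and 21106 bp.

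More channel genes had a peak in the body than at the start. The same held for all protein-coding genes (11.5% and 3.0%), and a body is far longer than a start window. At least 1 base of the body was covered in the replicated list in 19 of 40 channel genes, against 11.5% of all protein-coding genes. In the pooled list 25 were covered, against 15.0% of all genes. Replicate 1 covered 24 against 16.4% of all genes, replicate 2 covered 26 against 20.4%, and 23 had body peaks in both replicates' own lists against 14.8%. Channel genes are long, with a median of 105 kb against 17.4 kb for all protein-coding genes, and a long gene meets more peaks. Among genes of 100 kb or more, 10 of 20 channel genes had a replicated peak in the body, against 22.7% of all such genes. At least 1% of the body was covered in 14 of 40 channel genes, against 8.46% of all genes. For genes of 100 kb or more this was 6 of 20, against 9.28%. The difference from other genes was not tested.

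By length of sequence the channel genes were covered over 1.20% of their bodies in the replicated list, against 0.528% of all protein-coding gene bodies. Replicate 1 covered 1.57% of the channel gene bodies, against 0.639% of all bodies, and replicate 2 covered 2.25%, against 0.952%. The mean of the replicates was 1.91% ± 0.481 for channel genes and 0.795% ± 0.221 for all genes (SD, n = 2). The channel genes were above all genes in both replicates. The excess was uneven: Cacna1d held 32.8% and Cacna1c 22.9% of all channel gene bases in replicated peaks. Without these 2 genes the replicated share was 0.642%, and the median channel gene was at 0%, as was the median of all genes. On chromosome 11, the most densely covered of the 12 chromosomes with channel genes, the 6 channel genes were covered over 3.87%, against 1.57% of all gene bodies there. Off chromosome 11 the shares were 1.09% for channel genes and 0.467% for all genes.

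**Figure D1:**
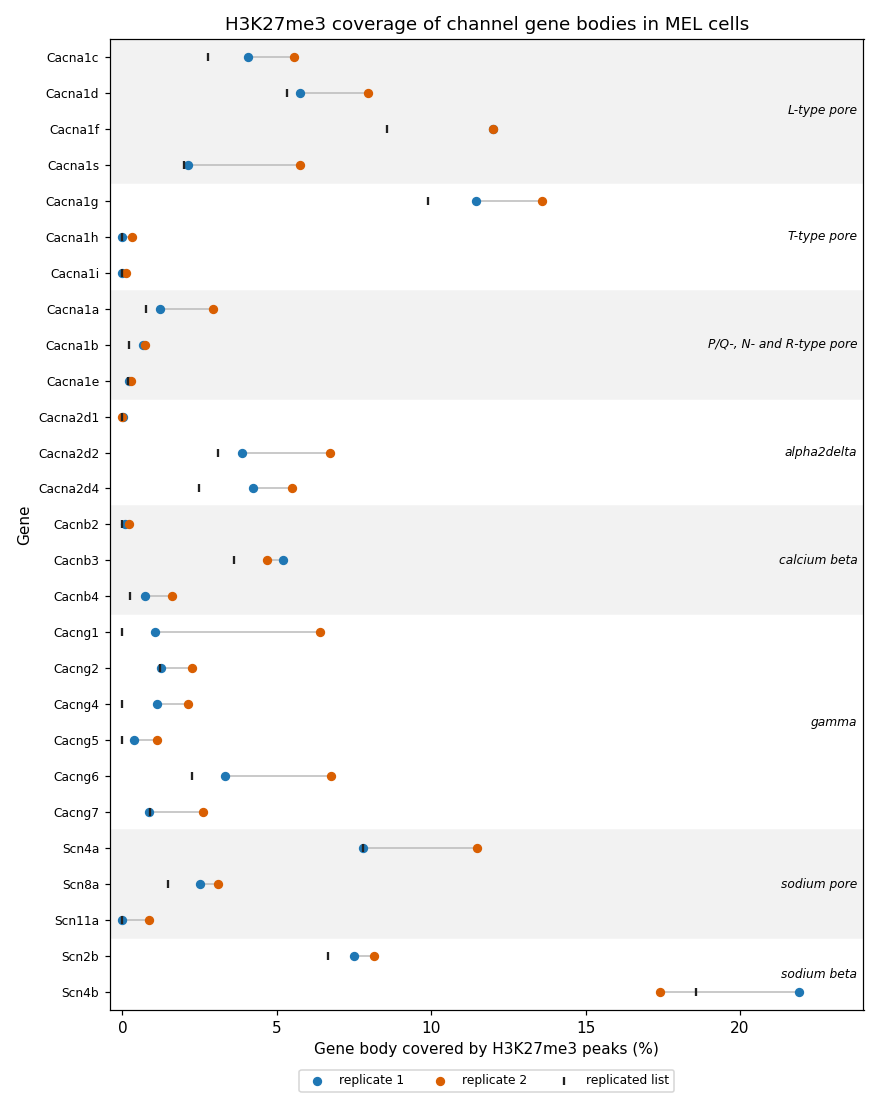
Share of the body covered by H3K27me3 peaks (x axis, percent) in the 27 channel genes with a covered base in any list, with genes grouped by subunit role down the page; points are the own lists of replicates 1 and 2, joined by a line, and the black tick is the replicated list. Scn4b has the largest share in both replicates (21.9% and 17.4%), and 13 further channel genes with no covered base in any list are not drawn.

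**Figure D2:**
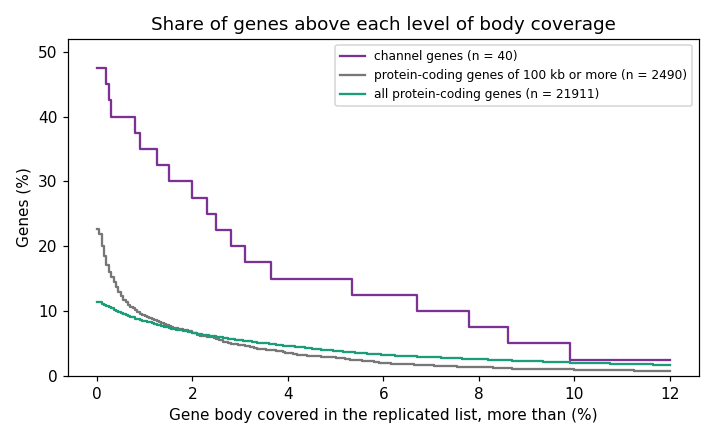
Share of genes (y axis, percent) whose body is covered in the replicated list over more than the level on the x axis (percent of the body), for 40 channel genes, 2490 protein-coding genes of 100 kb or more and all 21911 protein-coding genes. At 0 the curves start at 47.5%, 22.7% and 11.5%, and 1 channel gene, Scn4b, lies above 10%.

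Among the pore-forming calcium channel genes, the L-type group carried the most mark, and all 4 of its members had replicated peaks. Such a body peak was found in 11.5% of all genes and in 22.7% of those of 100 kb or more. L-type channels are the long-lasting, dihydropyridine-sensitive channels of muscle, heart, retina and endocrine cells. Together their bodies were covered over 4.80% in replicate 1, 6.66% in replicate 2 and 3.87% in the replicated list. Cacna1f, the L-type channel of photoreceptors (chromosome X, 7607083 to 7635196), was covered over 12.008% in replicate 1, 12.005% in replicate 2 and 8.56% in the replicated list. All gene bodies on chromosome X were covered over 0.351% in the replicated list. Cacna1s, the voltage sensor of skeletal muscle, had 2.11% in replicate 1 and 5.74% in replicate 2, so its replicates differed 2.72-fold.

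Cacna1d, the L-type channel of inner hair cells, sinoatrial node and endocrine cells, had the most covered bases of any channel gene (chromosome 14, 30039939 to 30491455). Peaks covered 25970 bases of it in replicate 1, 35970 in replicate 2 and 24126 in the replicated list, or 5.75%, 7.97% and 5.34% of the gene. The first 14 kb after the start held no replicated peak. Then 44 of its 73 replicated peaks lay in intron 1 of the principal transcript, an intron of 140 kb covered over 10.5% in replicate 1 and 11.8% in replicate 2. Of its replicated peaks 15 reached a −log10 q of 2, out of 21 such peaks in all channel genes. The strongest, of 1092 bp, is the one whose centre is printed above, with a −log10 q of 5.20.

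Peaks in intron 1 of Cacna1d joined into the only channel gene domains of 10 kb or more. Domains are replicated peaks joined where at most 3 kb separates them. The longer spanned 15590 bp (30438174 to 30453763), with 17 peaks. Replicate 1 covered 38.0% of it and replicate 2 covered 40.7%. The other spanned 10623 bp (30466736 to 30477358), covered over 28.1% and 33.6% in replicates 1 and 2. Cacna1d was thus 1 of 40 channel genes with such a domain, against 1.15% of all protein-coding genes. This count was 7 in replicate 1 and 8 in replicate 2, where 2.13% and 3.91% of all genes had such a domain. Domains in both replicates' own lists lay over Cacna1c, Cacna1d, Cacna1g, Cacna2d4, Cacnb3 and Scn4a. No share of all genes with domains in both lists is set beside this, so it does not set channel genes apart. Whether the domains of both replicates coincide was not tested.

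Cacna1c, the main L-type channel of heart and smooth muscle, was marked at lower density over a longer stretch (chromosome 6, 118587240 to 119196418). It was covered over 4.06% in replicate 1, 5.54% in replicate 2 and 2.76% in the replicated list. Of its 56 replicated peaks 16 lay in intron 1 and 37 in intron 3, and the nearest to the outermost start was 30374 bp away. Cacna2d4, an alpha2delta subunit of retinal channels, lies upstream of Cacna1c, on the opposite strand and with 40.1 kb between the genes, and was covered over 4.24% and 5.49% in replicates 1 and 2. The 20 kb after the end of Cacna1c were covered over 8.09% in replicate 1 and 14.3% in replicate 2, while the 20 kb before its start held no peak in either.

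**Figure D3:**
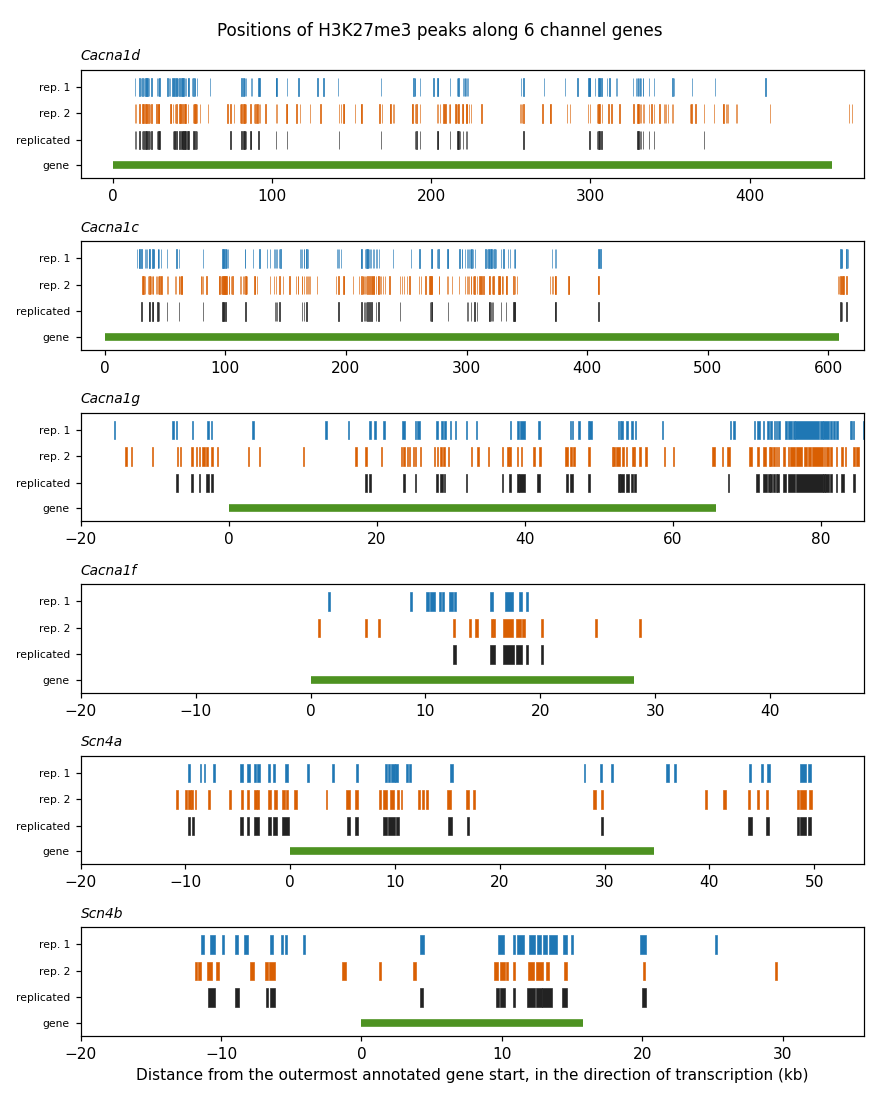
Positions of peaks in replicate 1, replicate 2 and the replicated list along 6 channel genes, each panel on its own scale (x axis, distance in kb from the outermost annotated start, read in the direction of transcription; the green bar is the gene). Replicated peaks of Cacna1d crowd between 14 and 53 kb from the start, Cacna1g has peaks inside and beyond its end, and replicated peaks of Cacna1f lie in its interior.

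The T-type genes, for low-voltage-activated channels that support pacemaking, split sharply. Cacna1g (chromosome 11, 94408391 to 94474198) was covered over 11.5% in replicate 1, 13.6% in replicate 2 and 9.88% in the replicated list, with 21 replicated peaks. Cacna1h had no covered base in replicate 1 and 0.296% in replicate 2, and Cacna1i had 0% and 0.126%. Neither had a replicated peak in its body. The mark at Cacna1g continued past its end: the next 20 kb, which reach into the transporter gene Abcc3, were covered over 43.9% in replicate 1 and 45.2% in replicate 2. The genes of the presynaptic P/Q-, N- and R-type pores were covered thinly. Cacna1a had 1.22% and 2.95% in replicates 1 and 2, Cacna1b 0.677% and 0.747%, and Cacna1e 0.216% and 0.273%, and each had between 2 and 6 replicated peaks.

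Among the alpha2delta subunits, extracellular proteins that raise the number of channels at the surface, 2 of 4 had replicated peaks. All 4 genes are longer than 100 kb, and 22.7% of all genes of 100 kb or more had a replicated body peak. Cacna2d2 was covered over 3.89% in replicate 1 and 6.72% in replicate 2, with 10 replicated peaks, and Cacna2d4 with 13 is described above. Cacna2d1 held 140 bases in replicate 1 and no peak in replicate 2. Cacna2d3 held no peak in any list over 817 kb, although only 318 kb separate it from the marked Cacna1d. Of the calcium channel beta subunit genes, Cacnb3 was covered over 5.19% and 4.67% in replicates 1 and 2. Cacnb4 had 0.718% and 1.61%, Cacnb2 had 0.0780% and 0.202% with no replicated peak, and Cacnb1 had none in any list.

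The 8 Cacng genes encode the gamma subunit of the skeletal muscle channel and its relatives, several of which are auxiliary subunits of AMPA receptors. Of the 8 roles they had the smallest overlap between replicates. Replicate 1 covered 0.793% of their bodies and replicate 2 covered 1.74%, but 2.60% of the bases covered in either were covered in both. Over all channel genes this overlap was 12.6%, and over all protein-coding gene bodies 16.2%. Replicated peaks lay in Cacng2 (6 peaks, all intronic), Cacng6 and Cacng7 (1 peak each). Cacng1, Cacng4 and Cacng5, neighbours on chromosome 11, had none, with 1.05%, 1.13% and 0.361% covered in replicate 1 and 6.41%, 2.13% and 1.11% in replicate 2. Cacng3 and Cacng8 had no peak in any list.

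Of the 10 sodium channel pore genes, with a median length of 111 kb, 2 had replicated peaks in the body. That is near the 22.7% of all genes of 100 kb or more, and 11.5% of all genes had one. Scn4a was covered over 7.80% in replicate 1, 11.5% in replicate 2 and 7.80% in the replicated list. Its 8 body peaks lay mostly in introns, from intron 5 to intron 21, with 1 centred in exon 7. Scn8a, a channel of axon initial segments and nodes of Ranvier (chromosome 15), was covered over 2.5% and 3.08% in replicates 1 and 2, with 7 of its 10 replicated peaks in intron 1. The neuronal genes Scn3a and Scn2a span 310 kb of chromosome 2, and Scn1a, Scn9a and Scn7a a further 514 kb beyond a gap of 503 kb. Neither stretch held a peak in any of the 4 lists, and the nearest replicated peak to a start was 2659982 bp from that of Scn3a. All gene bodies of chromosome 2 were covered over 0.562% in the replicated list. Of the sensory neuron genes on chromosome 9, Scn10a had no peak in any list, and Scn11a had 0.848% covered in replicate 2 and no peak in replicate 1.

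The sodium channel beta subunit genes showed the largest contrast within a role, and both marked genes are neighbours. Scn4b, a beta subunit linked to resurgent current (chromosome 9, 45138395 to 45154152), was covered over 21.9% in replicate 1, 17.4% in replicate 2 and 18.6% in the replicated list. This ranked it 199 among 21911 protein-coding genes. Of its 8 replicated peaks 4 were centred in exon 5, the last exon, and the strongest of them had a −log10 q of 3.15. Scn2b, 8.32 kb away, was covered over 7.51% and 8.14% in replicates 1 and 2, with both replicated peaks in its last exon, where the long non-coding RNA gene Gm10684 is also annotated. Scn3b had no peak in any list.

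Scn2b and Scn4b lie beside a densely marked stretch. Jaml, a gene of an adhesion protein, ends 9.25 kb before Scn2b and was covered over 44.1% and 44.8% in replicates 1 and 2. On the far side the protease gene Tmprss4 was covered over 18.3% and 16.3%. Coverage of the 36.4 kb from the start of Scn2b to the end of Scn4b was 14.4% in replicate 1 and 13.6% in replicate 2. The channel genes were therefore less densely covered than the gene upstream of them.

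**Figure D4:**
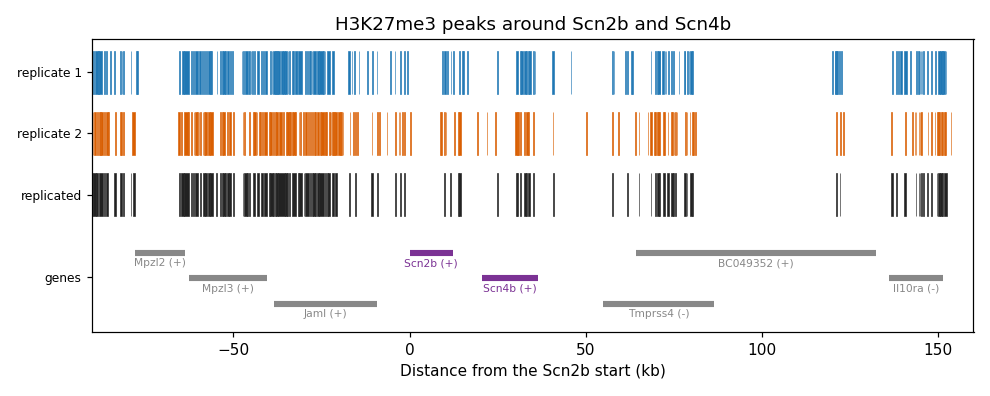
Peaks of replicate 1, replicate 2 and the replicated list around Scn2b and Scn4b (purple) with neighbouring protein-coding genes (grey, strand in brackets); the x axis is distance from the Scn2b start in kb. Peaks crowd over Mpzl3 and Jaml and thin out over the 2 sodium channel genes.

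Marked channel genes differed in whether the mark passed their ends. Cacna1d and Cacna1f had 0% of the 20 kb before the start covered in both replicates, and at most 1.40% of the 20 kb after the end. Around Scn4a the 20 kb before the start were covered over 10.9% and 15.6% in replicates 1 and 2, more than the gene itself in each. Cacnb3 had 20.1% and 30.8% before its start and 0% after its end. At Cacna1g the flank after the end was covered 3.83-fold and 3.33-fold more densely than the gene. Whether the mark in the gene and that beside it are linked was not tested.

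**Figure D5:**
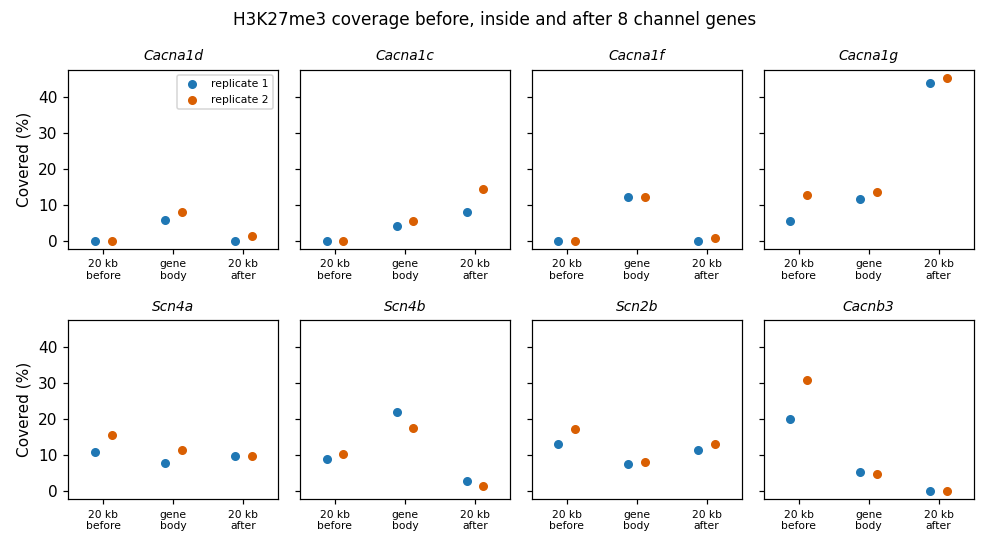
Share of sequence covered (y axis, percent) in the 20 kb before the start, in the gene body and in the 20 kb after the end of 8 marked channel genes, with a point for each replicate. Cacna1d and Cacna1f have at most 1.40% of either flank covered, whereas Cacna1g reaches 43.9% and 45.2% after its end and Cacnb3 20.1% and 30.8% before its start.

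The 235 replicated peaks in channel genes were much like other replicated peaks in size and strength. Their median width was 273 bp against 278 bp for all replicated peaks, the authors' signal value had a median of 3.49 against 3.54, and 8.94% reached a −log10 q of 2 against 10.9%. By their centres 222 lay in introns, 10 in exons and 3 outside the principal transcript. Exons made up 5.51% of the channel gene sequence and 6.12% of its covered bases. Along the genes, 31.8% of covered bases lay in the first 20% of the body, where Cacna1d had 54.4% of its own, and 11.2% in the last 20%. Most of the bases in that first part were in Cacna1d (13117), followed by Cacna1c with 5153, so the tilt is no general trait of channel genes. Of the 235 peaks 162 overlapped peaks in both replicates' own lists. No such count for all replicated peaks is set beside it, so it does not set channel genes apart.

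The replicates ranked the channel genes alike. Across the 40 genes, which are not independent replicates and share the same libraries and control, body coverage in replicates 1 and 2 correlated at 0.937 (Pearson) and 0.945 (Spearman). For all protein-coding genes the coefficients were 0.887 and 0.804. Replicate 2 covered a larger share than replicate 1 in 23 channel genes and a smaller one in 4, and 13 were at 0% in both. Overlap base by base was lower, and lower than over all gene bodies. Of the bases that replicate 1 covered in channel genes, 27.3% were also covered in replicate 2, against 34.8% over all gene bodies. Of those that replicate 2 covered, 19.0% were also covered in replicate 1, against 23.4%.

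Other genes of excitability, in 3 lists taken from general knowledge, had a smaller share of their bodies covered than all genes. Their counts of bodies with a peak stand beside 11.5% of all genes and 22.7% of genes of 100 kb or more. Of 23 genes whose products bind or traffic these channels 3 had a replicated peak in the body, and 0 had one at the start. Nfasc, an adhesion protein of nodes of Ranvier, was covered over 5.80% and 10.5% in replicates 1 and 2, Ank3 over 0.447% and 0.589%, and Sptbn4 over 0.782% and 1.03%. Of 25 other cation and calcium channel genes 5 had a body peak: the sperm channel genes Catsper1 (10.1% and 12.8% in replicates 1 and 2) and Catsper4 (5.90% and 6.01%), and the ryanodine receptor genes Ryr1, Ryr2 and Ryr3. Of 8 AMPA receptor and related genes 3 had one, Cnih3, Gria4 and Gsg1l. These lists, in the same order, were covered over 0.261%, 0.189% and 0.122% of their bodies in the replicated list. All gene bodies were covered over 0.528%, and those of 100 kb or more over 0.379%. The median gene lengths of the 3 lists were 31.8, 64.9 and 241 kb. Beside genes of 100 kb or more, the AMPA receptor list was lower in replicate 1 (0.285% against 0.472%). It was level in replicate 2 (0.743% against 0.740%). Of 8 neuronal marker genes 0 had a replicated peak in the body, and of 8 muscle genes 2 did, Myh6 (1.03%) and Tnnt2 (1.33%), beside the same 11.5%. The muscle genes were covered over 0.926% in replicate 1 and 2.14% in replicate 2, against 0.639% and 0.952% of all gene bodies. In the replicated list they were covered over 0.409%.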

How the data were processed

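Per the labels, both replicates are H3K27me3 ChIP-seq of the MEL line, but no source mentions separate cultures. Differences between the replicates may therefore be technical. The text descriptions deposited with the lists say that peaks were called on the mm10 alignments of each replicate, and of both together, against 1 shared control alignment. They name those lists as the source of the replicated list. Not given in the sources used here were the rule for the replicated list, the aligner and the caller. The authors deposited for each peak a signal value, a score of undefined scale, and −log10 p-value and −log10 q-value. No read counts are given, so depth is unknown and no counting interval can be had. H3K27me3 is a broad mark, which narrow peaks break up, and uncovered sequence may still carry it below the threshold.

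Genes came from GENCODE release 21 on GRCm38, the build that mm10 names. Every peak lay within its chromosome lengths. A start was the outermost 5' end and its window 1 kb on each side, and any overlap of 1 bp counted. Coverage used the union of peaks in the gene body. Introns are numbered in the APPRIS principal transcript with the longest coding sequence. Promoter sequences from RefSeq matched 30 of 40 channel genes. Bodies were also set against genes of 100 kb or more. The mm9 list was not used. No test was run, because there is 1 group. The members, lists and alternatives were chosen with earlier results of these data known. Any channel gene could be named; each with a start peak, a domain of 10 kb or more or no peak, and the 12 most covered, are, except that some results are not reported here. Python 3.11.15, pandas 2.3.3, pysam 0.24.0 and samtools 1.23.1 were used, and the coverage code was tested on simulated intervals.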

Additional observations from a re-analysis of the deposited data

How the results depend on the processing

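In none of the alternatives run did more than 5 of 40 channel genes (12.5%) have a start peak. The count was 1 in the replicated list (3.0% of all genes), 3 in the pooled list (4.48%), 0 among peaks with a −log10 q of at least 2 (0.589%), 0 in the upper 50% by signal value (1.94%), 4 with 2.5 kb on each side (5.97%) and 5 with any transcript start (4.63%). Leaving out a replicate gave 3 to 5 (4.46% and 6.28%). It stayed at 1 with a 500 bp window (1.77% of all genes), 500 bp covered (0.831%), 50% of the peak inside the window (2.54%) or bases in both replicates' own lists (2.27%, an alternative chosen after seeing the data). The count of 19 covered bodies ran from 14 (upper 50% by signal value, 8.7% of all genes, or 1% covered, 8.46%) to 26 (20.4%) except at a −log10 q of at least 2, where 5 were left (Cacna1c, Cacna1d, Cacna1g, Cacna2d2 and Scn4b), against 3.35% of all genes. The covered share of 1.20% (0.528% of all gene bodies) was 1.92% in the pooled list (0.768%). With a replicate left out it was 1.57% to 2.25% (0.639% and 0.952%). It was 0.152% at a −log10 q of at least 2 and 0.653% in the upper 50% by signal value, with no value for all genes given. For bases in both replicates' own lists it was 0.428% (0.222% of all gene bodies). Without Cacna1d and Cacna1c it was 0.642%, beside the 0.528%. Both of these settings were chosen after seeing the data. Genes with a domain of 10 kb or more numbered 1 (1.15% of all genes), but 0 when joined within 1 kb (0.155%), 7 within 10 kb (4.98%), 8 in the pooled list (2.57%) and 7 to 8 with a replicate left out (2.13% and 3.91%). Apart from what the construction of a setting shows (fewer or more peaks, shorter or longer gaps), the cause was not tested. No paired analysis was possible because there is only 1 group. Read depth is unknown, so weak peaks cannot be weighed by reads.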
